A study of Mus musculus with 4 samples.

Results

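A group of 10 hypoxia response genes was followed in cultures of mouse cells that overexpressed estrogen-related receptor γ (ERRγ). They were Adm, Ndrg1, Vegfa, Bnip3, Ankrd37, Egln3, Egln1, Hif1a, Epas1 and Arnt. The 10 members were chosen by name, from earlier results of the same data in which several of them differed between the ERRγ libraries. They are 10 of the 23282 rows of each deposited count table, and all 10 were among the 13070 rows that passed the filter on low counts. No member had fewer than 41 counts in any library, so none passed through its higher group alone. Because the values of ERRγ library 1, ERRγ library 2 and the GFP libraries led to the choice, those values are given as a description and no member was tested.

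The libraries came from C57BL/6J pancreas, from cells that the labels call primary acinar cells. An adenovirus carried either ERRγ or green fluorescent protein (GFP) into them, at a multiplicity of infection of 100 for 36 h, and each virus has 2 libraries, numbered 1 and 2. All 4 libraries share the strain, an adenovirus, and a medium with 2.5% serum, a trypsin inhibitor and 25 ng/ml epidermal growth factor. The sources used here do not give the oxygen level of the cultures or the promoter of the transgene. Whether libraries 1 and 2 of a virus are different animals or cultures is not stated either, so each p-value rests on a spread between libraries that may be technical.

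Cells sense oxygen through hypoxia-inducible factor (HIF), a dimer of an oxygen-regulated α subunit (Hif1a or Epas1) and the stable β subunit Arnt. In normal oxygen, prolyl hydroxylases such as those encoded by Egln1 and Egln3 mark the α subunit, the von Hippel-Lindau protein (Vhl) binds it, and it is destroyed. When oxygen is scarce the subunit escapes, and HIF binds short DNA cores at its target genes. The targets raise glucose use, blood vessel growth and the clearing of mitochondria. Since the α subunit is controlled mainly as a protein, a transcript level of Hif1a does not measure HIF activity.

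The data are counts of transcript-end reads, with 10105604 to 11012351 per library. Levels are given in CPM, the counts scaled to a common library size, and ratios are plain ratios of CPM. The kit reads each transcript once near its end, so CPM needs no correction for length. Reads that match several genes can still shift a level, so CPM of different genes compare only roughly. Esrrg, the gene that encodes ERRγ, stood at 8.80 and 9.60 CPM in GFP libraries 1 and 2, 130 CPM in ERRγ library 1 and 1284 CPM in ERRγ library 2. Both ERRγ libraries were thus above both GFP libraries, and ERRγ library 2 held 9.90 times the level of library 1 (exact 95% counting interval 9.38 to 10.5). The 10 acinar markers summed to between 47.2 and 103 CPM per library, with no count of the acinar factor Ptf1a anywhere. The 7 genes listed as ductal markers summed to 7238 to 11127 CPM. The highest of them were Krt8 (2725 to 4685 CPM) and Krt18 (2180 to 3375 CPM), keratins that are not confined to ductal cells. In bulk samples such as these, fewer cells of a type and less RNA per cell cannot be told apart.

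Promoter sequences show where the HIF binding core lies in several of the members with a wide gap between the ERRγ libraries. RefSeq promoters on GRCm38.p6, from 250 bases before to 50 after a gene's start, were matched for 8 of the 10 members, Vegfa with 2 starts, and not for Ndrg1 and Epas1. The core was searched as ACGTG and as GCGTG on both strands, and overlapping matches were counted apart. Capitals mark the matches, read on either strand.
Adm (chr7:110627407-110627706, plus strand): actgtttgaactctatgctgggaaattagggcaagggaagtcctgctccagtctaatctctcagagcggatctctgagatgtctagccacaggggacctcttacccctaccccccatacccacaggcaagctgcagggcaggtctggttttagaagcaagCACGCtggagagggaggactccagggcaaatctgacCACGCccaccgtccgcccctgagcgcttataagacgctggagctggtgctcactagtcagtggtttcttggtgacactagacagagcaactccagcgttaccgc
Bnip3 (chr7:138909457-138909756, minus strand): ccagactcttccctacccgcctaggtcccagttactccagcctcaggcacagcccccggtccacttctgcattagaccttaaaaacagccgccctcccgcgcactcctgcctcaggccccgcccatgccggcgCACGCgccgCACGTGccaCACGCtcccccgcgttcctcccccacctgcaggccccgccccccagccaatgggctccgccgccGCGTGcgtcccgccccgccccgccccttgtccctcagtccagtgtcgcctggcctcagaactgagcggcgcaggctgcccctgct
Ankrd37 (chr8:45999801-46000100, minus strand): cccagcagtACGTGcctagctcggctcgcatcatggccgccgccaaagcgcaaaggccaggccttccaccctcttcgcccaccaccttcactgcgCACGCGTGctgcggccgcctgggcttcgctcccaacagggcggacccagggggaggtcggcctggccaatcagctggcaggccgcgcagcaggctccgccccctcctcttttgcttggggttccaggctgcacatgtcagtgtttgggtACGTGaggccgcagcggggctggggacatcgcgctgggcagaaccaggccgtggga
Egln3 (chr12:54203825-54204124, minus strand): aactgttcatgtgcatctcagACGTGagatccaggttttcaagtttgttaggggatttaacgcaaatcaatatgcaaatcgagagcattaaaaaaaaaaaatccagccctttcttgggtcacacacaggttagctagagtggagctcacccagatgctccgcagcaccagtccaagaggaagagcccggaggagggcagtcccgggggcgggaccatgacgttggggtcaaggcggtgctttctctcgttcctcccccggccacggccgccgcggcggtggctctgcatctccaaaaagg

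Bnip3 held 5 matches and Ankrd37 held 4, with 1 pair of overlapping matches in each. In Bnip3 they began between 117 and 35 bases before the start, and in Ankrd37 between 241 and 6 bases before it. Adm held 2 matches, at 90 and 54 bases before the start, and Egln3 held 1, at 229 bases. Hif1a had 3, the downstream start of Vegfa 2, Egln1 2 and Arnt 1, while the upstream start of Vegfa had none of these letters in its window. The windows of the downstream Vegfa start, Ankrd37 and Hif1a lie wholly within the gene positions given below, so they may not be the main promoters. In all, 8 of the 9 member promoters held a match, against 43.8% of all 32851 promoters of the same length and 61.2% of the 12650 promoters of tested genes. Among the promoters of genes at least 2-fold higher in ERRγ library 2 than in library 1, the share was 54.7%, and among the 63 promoters of the other HIF targets listed here it was 74.6%. The half-site of estrogen-related receptors, AAGGTCA, was in none of the 9, against 4.72% of all promoters and 3.39% of those of tested genes. At shares this low, none in 9 is the usual outcome, so nothing is read from the absence. A match is a description of letters in this window and does not show that a factor binds there.

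**Figure D1:**
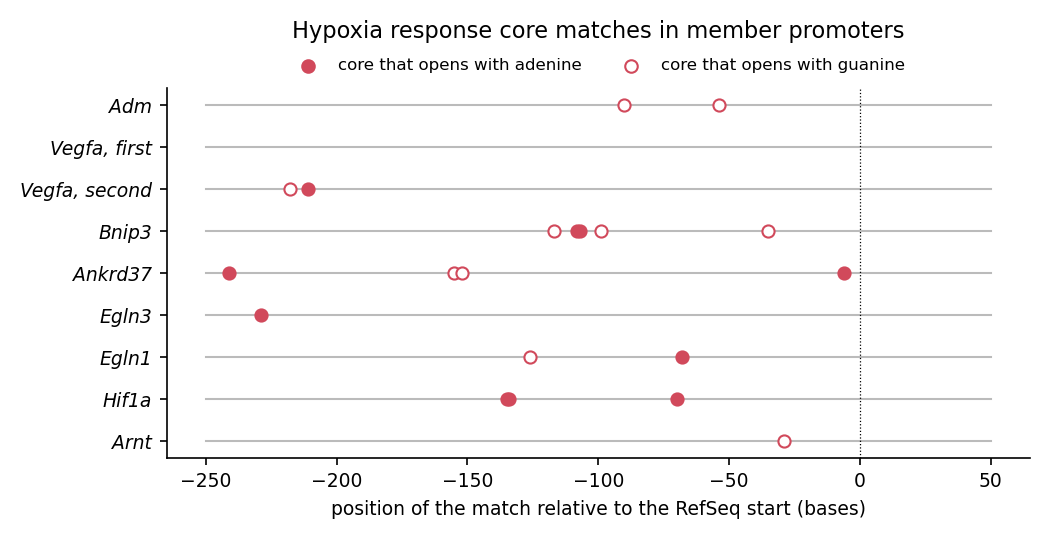
Each grey line is 1 RefSeq promoter (Vegfa has an upstream, first start and a downstream, second start), and the horizontal axis gives bases from the gene's start. Filled circles are matches of the core that opens with adenine and open circles those that open with guanine, on either strand. All matches lay before the start, and the upstream Vegfa start had none.

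Of the secreted targets, Adm (chr7:110627661-110629820, plus strand, GENCODE M21 on GRCm38, as for the positions below) encodes adrenomedullin, a peptide that widens blood vessels. It stood at 17.9 and 20.6 CPM in GFP libraries 1 and 2, 24.2 CPM in ERRγ library 1 and 292 CPM in ERRγ library 2. ERRγ library 1 was 1.25 times the GFP mean and library 2 was 15.2 times it. The ERRγ libraries differed by 12.1 times (counting interval 10.7 to 13.7), the tenth highest of all genes tested when ranked by log2 ratios of CPM plus 0.5. Adm was thus high in a single library, although both ERRγ libraries lay above both GFP libraries.

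Vegfa (chr17:46016993-46032369, minus strand) encodes the growth factor that drives the sprouting of vessels, and it was the most abundant member. Its level was 266 and 278 CPM with GFP, 384 CPM in ERRγ library 1 and 1011 CPM in ERRγ library 2. Both ERRγ libraries exceeded both GFP libraries, by 1.41 times and 3.71 times the GFP mean. The step from ERRγ library 1 to library 2 was 2.63 times (2.54 to 2.73), smaller than that of Adm.

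Ndrg1 (chr15:66929318-66969640, minus strand) encodes a cytosolic protein induced by many stresses. It had 151 and 155 CPM with GFP, 90.7 CPM in ERRγ library 1 and 909 CPM in ERRγ library 2. ERRγ library 1 was below both GFP libraries, at 0.594 times their mean, and library 2 was at 5.95 times that mean. The groups therefore overlapped, and the ratio of the ERRγ libraries was 10.01 (9.38 to 10.7).

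Bnip3 (chr7:138890836-138909519, minus strand), a receptor on the outer mitochondrial membrane that marks mitochondria for removal, measured 32.02 and 40.9 CPM with GFP. It reached 51.0 CPM in ERRγ library 1 and 182 CPM in library 2, or 1.40 and 5.002 times the GFP mean. Ankrd37 (chr8:45996902-46005707, minus strand), an ankyrin repeat protein gene known as a HIF target, had 4.19 and 6.01 CPM with GFP. It stood at 6.69 CPM in ERRγ library 1 and 49.0 CPM in library 2, and the ERRγ libraries differed by 7.32 times (5.73 to 9.46). For both genes the groups did not overlap, and ERRγ library 1 lay closer to the higher GFP library than to ERRγ library 2. Ankrd37 overlaps the coding genes Ufsp2 and Lrp2bp on the opposite strand, so reads of these neighbours could be counted with it if strand was not used. Adm, Ndrg1, Bnip3 and Hif1a overlap predicted genes on the opposite strand, to which the same applies. Hif1a also overlaps the coding gene Gm49321 on its own strand. Epas1 overlaps AC096777.1 and Arnt the processed pseudogene Gm42672, likewise on their own strand. Use of strand would not set reads of these 3 neighbours apart.

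The oxygen sensors are both enzyme genes and known HIF targets, which gives the pathway a negative feedback. Egln3 (chr12:54178981-54203860, minus strand) showed 14.4 and 14.0 CPM with GFP, 13.0 CPM in ERRγ library 1 and 135 CPM in ERRγ library 2. Library 1 was just below both GFP libraries, library 2 was 9.50 times their mean, and the ERRγ libraries differed by 10.4 times (8.73 to 12.4). Egln1 (chr8:124908587-124949324, minus strand), the main hydroxylase in most cells, had 47.3 and 63.9 CPM with GFP, 62.1 CPM in ERRγ library 1 and 132 CPM in library 2. Its level in ERRγ library 1 lay between the GFP libraries, and library 2 was 2.37 times the GFP mean. The gap between the ERRγ libraries was 2.12 times, the smallest among the 7 members with a gap of at least 2-fold.

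The 3 HIF subunit genes did not share that pattern. Hif1a (chr12:73901375-73947530, plus strand) had 203 and 223 CPM with GFP, 196 CPM in ERRγ library 1 and 247 CPM in library 2, and the ratio of the ERRγ libraries was 1.26. Arnt (chr3:95434388-95497240, plus strand) had 16.8 and 21.0 CPM with GFP, and 19.1 and 15.6 CPM in ERRγ libraries 1 and 2. Epas1 (chr17:86753700-86833410, plus strand), which encodes the other α subunit, had 4.91 and 5.47 CPM with GFP and 13.0 and 12.4 CPM in ERRγ libraries 1 and 2. Epas1 was thus the member with a like difference in both ERRγ libraries, at 2.51 times the GFP mean in library 1, and the ratio between these libraries was 0.956 (0.747 to 1.22). The groups overlapped for Hif1a and Arnt and did not for Epas1. Epas1 was the least abundant member by its mean over the 4 libraries.

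**Figure D2:**
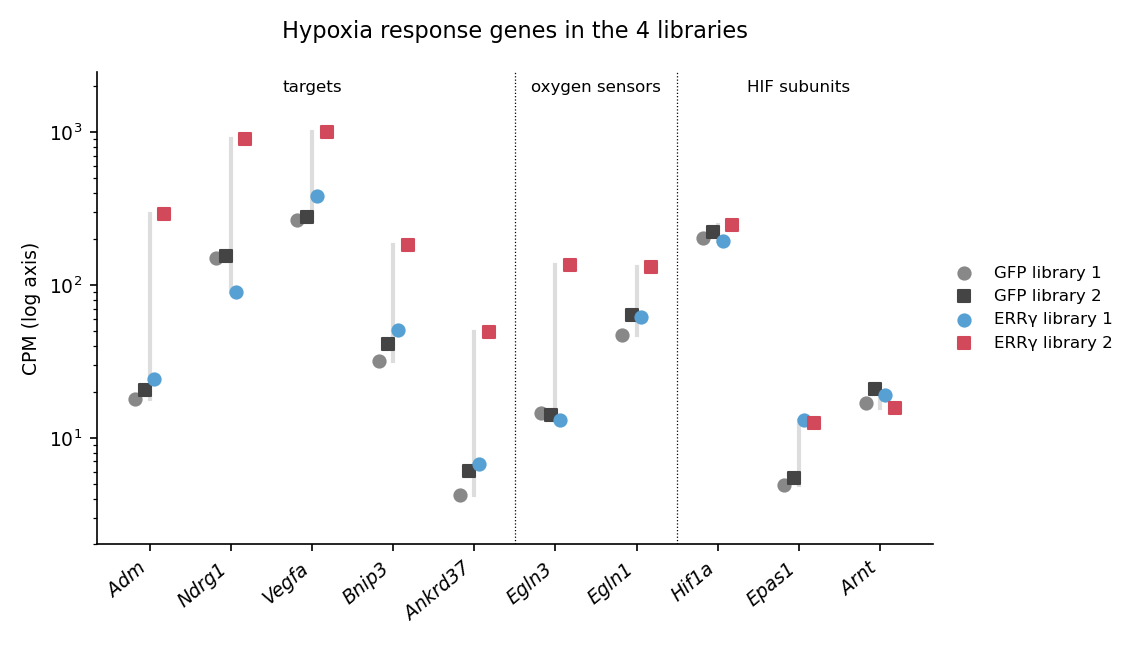
Points give the CPM of each member in each of the 4 libraries on a log axis, and grey bars span the lowest to the highest library. ERRγ library 2 stands apart from the other three for the 5 targets and the oxygen sensors, whereas Epas1 separates both ERRγ libraries from both GFP libraries.

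Across the 10 members, 7 were at least 2-fold higher in ERRγ library 2 than in library 1 and none was as much lower, where 2.74% of all genes tested were higher and 3.76% lower by that margin. Fold thresholds here and below refer to log2 ratios of CPM plus 0.5. In ERRγ library 2, 8 members were at least 2-fold above the GFP mean (6.82% of all genes) and none 2-fold below it (5.08%). In ERRγ library 1 Epas1 alone was 2-fold above (5.25%) and none 2-fold below (2.15%). Both ERRγ libraries exceeded both GFP libraries for 5 members (27.4% of all genes), and none lay below both (26.6%). The median log2 ratio to the GFP mean was 0.24 in ERRγ library 1 and 2.10 in library 2, against −0.01 and −0.02 for all genes. The ERRγ libraries share the GFP mean in these ratios. Since these contrasts chose the members, nothing is read from the shares.

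The GFP libraries give the spread between libraries of the other virus. No member differed 2-fold between them, where 1.13% of all genes were at least 2-fold higher in GFP library 2 and 2.72% lower. The log2 ratio of GFP library 2 to library 1 ran from −0.04 for Egln3 to 0.47 for Ankrd37, with a median of 0.17. The 7 members with a wide ERRγ gap were set apart by a gap of at least 2-fold. That their gap exceeded this GFP spread follows from that choice, so nothing is read from it. For Epas1 and Arnt the ERRγ libraries were no farther apart than the GFP libraries.

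**Figure D3:**
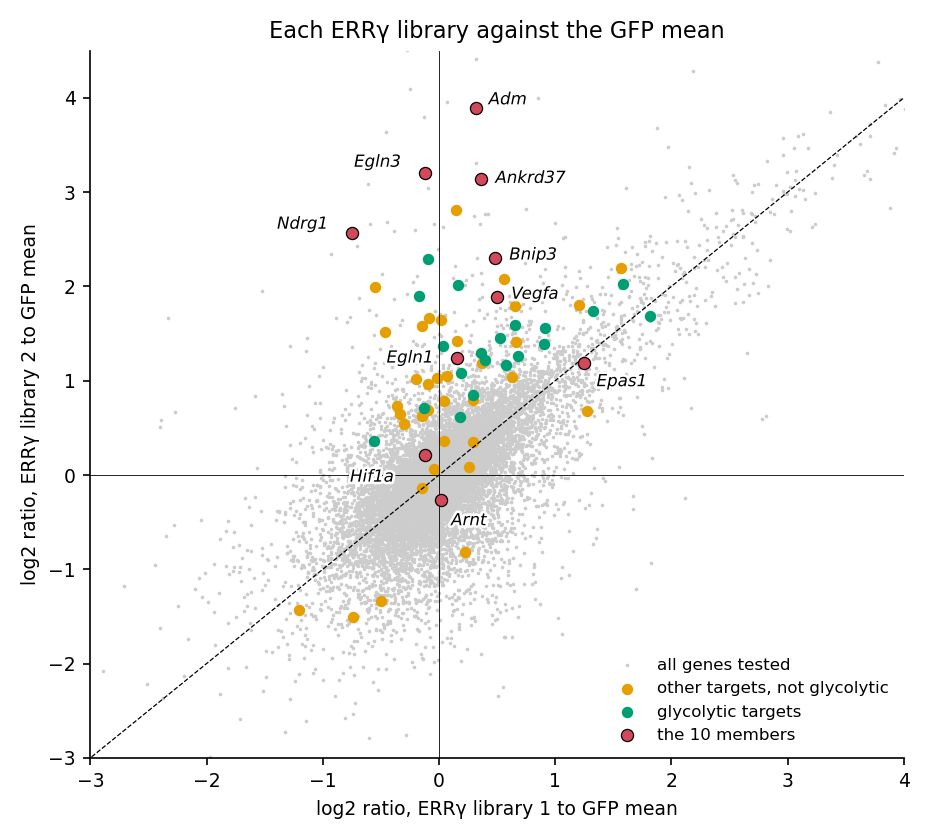
The horizontal axis gives the log2 ratio of ERRγ library 1 to the GFP mean and the vertical axis that of ERRγ library 2, with a dashed line where they are equal. Red points are the members, orange and green points other targets outside and within glycolysis, and grey points all genes tested, 29 of which lie outside the axes; both axes share the GFP mean. Adm, Ankrd37, Egln3, Ndrg1, Bnip3, Vegfa and Egln1 lie above the dashed line by at least 1 on the log2 scale, and Epas1 lies beside it.

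Other targets of the pathway were taken from lists of textbook HIF targets. The lists were drawn up with earlier results of these data known, so counts within them are not independent support. In the list of targets outside glycolysis, 5 of 35 tested genes rose with ERRγ and 2 fell by edgeR's quasi-likelihood test over all genes. Of all genes, 5.06% rose and 1.78% fell, 6.84% together. At an unadjusted p under 0.05, 11 of the listed targets rose and 3 fell. The share of all genes at that level is not given here, so nothing is read from unadjusted counts, here or below. The median log2 fold change of the listed targets was 0.60, against −0.01 for all genes. Stc2, a secreted glycoprotein of calcium and phosphate balance, rose 3.96-fold. It had 6.85 and 7.09 CPM with GFP and 21.6 and 33.7 CPM in ERRγ libraries 1 and 2 (adjusted p = 0.00641, log2 fold change 1.98, SE 0.27). Tfrc, the transferrin receptor that brings iron into cells, rose 2.91-fold, from 85.0 and 81.0 CPM to 192 and 291 CPM (adjusted p = 0.00548). Higd1a, a small protein of the mitochondrial inner membrane, went from 76.6 and 89.8 to 132 and 222 CPM (adjusted p = 0.0348). Igfbp3, which binds insulin-like growth factors, went from 113 and 139 to 195 and 261 CPM (adjusted p = 0.033). Fam162a, named to spell out the count, went from 97.5 and 91.5 to 149 and 328 CPM (adjusted p = 0.0468). For these 5 genes both ERRγ libraries were above both GFP libraries, and library 2 was the higher of the pair. Without ERRγ library 2 the log2 fold change was 0.66 for Higd1a against 1.09 with all libraries, and 0.65 for Fam162a against 1.34.

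The 2 targets that fell were Angptl4, a secreted inhibitor of lipoprotein lipase, and Edn1, the vasoconstrictor endothelin. Angptl4 dropped from 96.8 and 100.4 CPM to 42.4 and 36.3 CPM (adjusted p = 0.00272, log2 fold change −1.33, SE 0.14). Edn1 dropped from 197 and 167 CPM to 109 and 63.7 CPM (adjusted p = 0.0368, log2 fold change −1.07, SE 0.24). Both genes are on the list of textbook HIF targets, and they were lower in both ERRγ libraries than in both GFP libraries. The cause of these falls was not tested.

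Among 20 tested glycolytic targets, 5 rose and none fell by edgeR (5.06% and 1.78% of all genes), with a median log2 fold change of 1.12. At an unadjusted p under 0.05, 16 rose and none fell. Hk1, a hexokinase, had 67.1 and 65.5 CPM with GFP and 167 and 222 CPM with ERRγ (adjusted p = 0.00267). Pgam1 rose from 194 and 217 to 385 and 539 CPM (adjusted p = 0.0106), and Pgk1 from 99.1 and 110 to 168 and 252 CPM (adjusted p = 0.025). Gapdh (adjusted p = 0.0136) and Tpi1 (adjusted p = 0.036) were the others, and Tpi1 moved from a log2 fold change of 0.90 to 0.57 without ERRγ library 2. Processed pseudogenes of such glycolytic genes can share reads with them, so these levels are uncertain. Eno1, a listed glycolytic target, had 0 counts in both ERRγ libraries and 2 and 0 counts in GFP libraries 1 and 2. Its counts were too low to test, and whether reads of Eno1 were assigned elsewhere cannot be told from them. DESeq2 called 10 of the 20 as higher and none as lower, where it called 813 and 349 of all 13070 genes tested.

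These calls depended on both GFP libraries; with 1 left out, the lone library is assumed to vary like the ERRγ pair. Without GFP library 1 or without GFP library 2, no gene rose in either target list by edgeR, while 6 and 8, or 7 and 9, had an unadjusted p under 0.05 in the lists outside and within glycolysis. Angptl4 kept its call in both fits (adjusted p = 0.0468 and 0.0426). Edn1 lost it without GFP library 1 (0.287) or GFP library 2 (0.15), and also when library totals set the scale (0.054). The rises lost theirs likewise, with adjusted p from 0.0659 for Hk1 to 0.313 for Igfbp3 without GFP library 1 and from 0.0542 for Hk1 to 0.271 for Fam162a without GFP library 2. Fam162a also lost its call with DESeq2 (adjusted p = 0.12) and with a filter on a mean of at least 5 CPM (adjusted p = 0.0508).

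The wide gap between the ERRγ libraries extended to other targets, as values without a test. Of the 35 tested targets outside glycolysis, 13 were at least 2-fold higher in ERRγ library 2 than in library 1 and 1, Fut11, was that much lower. Of the 20 glycolytic targets it was 4 and none (2.74% higher and 3.76% lower among all genes). Their median log2 ratios of ERRγ library 2 to library 1 were 0.79 and 0.83, against −0.01 for all genes. Ero1l, an oxidase that helps fold secreted proteins, had 64.9 and 70.9 CPM with GFP, 75.2 CPM in ERRγ library 1 and 479 CPM in library 2. Stc1, a paralog of Stc2, had 8.49 and 8.17 CPM with GFP, 5.53 CPM in ERRγ library 1 and 34.6 CPM in library 2. Hmox1, the heme-degrading enzyme, had 130 and 102 CPM with GFP, 83.9 CPM in library 1 and 333 CPM in library 2. In these 3 genes ERRγ library 2 alone was high, as in Adm and Egln3.

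The glycolytic targets with the widest ERRγ gap were Slc2a1, Hk2 and Pfkfb3. Slc2a1, the glucose transporter GLUT1, had 238 and 226 CPM with GFP, 206 CPM in ERRγ library 1 and 867 CPM in ERRγ library 2. Hk2, the inducible hexokinase, had 244 and 263 CPM with GFP against 285 and 1024 CPM. Pfkfb3, which makes the activator of phosphofructokinase, had 81.6 and 100.7 CPM against 85.5 and 448 CPM. ERRγ library 1 was below both GFP libraries for Slc2a1, above both for Hk2 and between them for Pfkfb3. None of these 3 passed the test of ERRγ against GFP (adjusted p = 0.218, 0.137 and 0.176). The ERRγ libraries differed by 1.33 times for Hk1 and 1.40 times for Pgam1, which passed it.

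**Figure D4:**
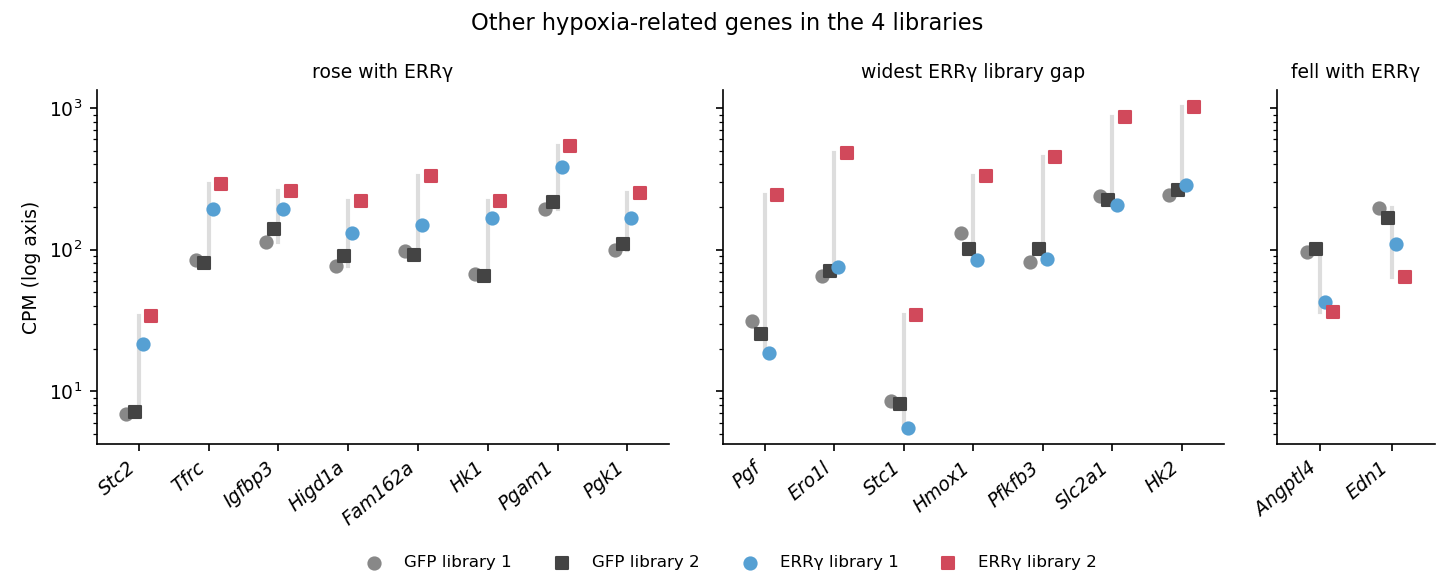
Points give CPM in each library on a log axis for genes that rose, genes with the widest gap between the ERRγ libraries, and genes that fell; grey bars span the lowest to the highest library. Genes in the first and last panels part both ERRγ libraries from both GFP libraries, while in the middle panel ERRγ library 2 stands alone.

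A common description of this pattern is a level in ERRγ library 2 at least 2-fold above both ERRγ library 1 and the GFP mean, with library 1 within 2-fold of that mean. It held for 175 of the 13070 genes tested (1.34%). It held for 11 of 35 targets outside glycolysis and 4 of 20 glycolytic targets. It also held for 7 of the 10 members, but their values led to their choice, so nothing is read from that count. The 11 were P4ha1, P4ha2, Plod2, Ero1l, Ddit4, Mxi1, Kdm3a, Stc1, Hmox1, Ak4 and Fam162a, and the 4 were Slc2a1, Hk2, Pfkfb3 and Slc16a3. Not all classical targets followed it. Car9, a carbonic anhydrase much used as a hypoxia marker, had 114 and 149 CPM with GFP, 123 CPM in ERRγ library 1 and 212 CPM in library 2. The kinase gene Pdk1 had 12.1 and 16.7 CPM against 22.9 and 44.5 CPM, and Ldha 375 and 328 CPM against 400.3 and 747 CPM. Car9, Pdk1 and Ldha did not pass the test by edgeR (adjusted p = 0.451, 0.0642 and 0.161), while DESeq2 called Pdk1 and Ldha.

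With ERRγ library 1 as the only ERRγ library, the spread comes from the GFP pair and the lone library is assumed to vary like it. In that fit 6 of 35 targets outside glycolysis rose and 4 fell, with a median log2 fold change of 0.01, and 7 of 20 glycolytic targets rose, with a median of 0.45 (7.19% and 4.72% of all genes rose and fell). With ERRγ library 2 as the only one, 24 rose and 3 fell outside glycolysis, with a median of 1.01, and 17 rose in glycolysis, with a median of 1.42 (11.8% and 8.13% of all genes). All 14 named list genes past the threshold with 4 libraries also passed it in both of these fits.

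**Figure D5:**
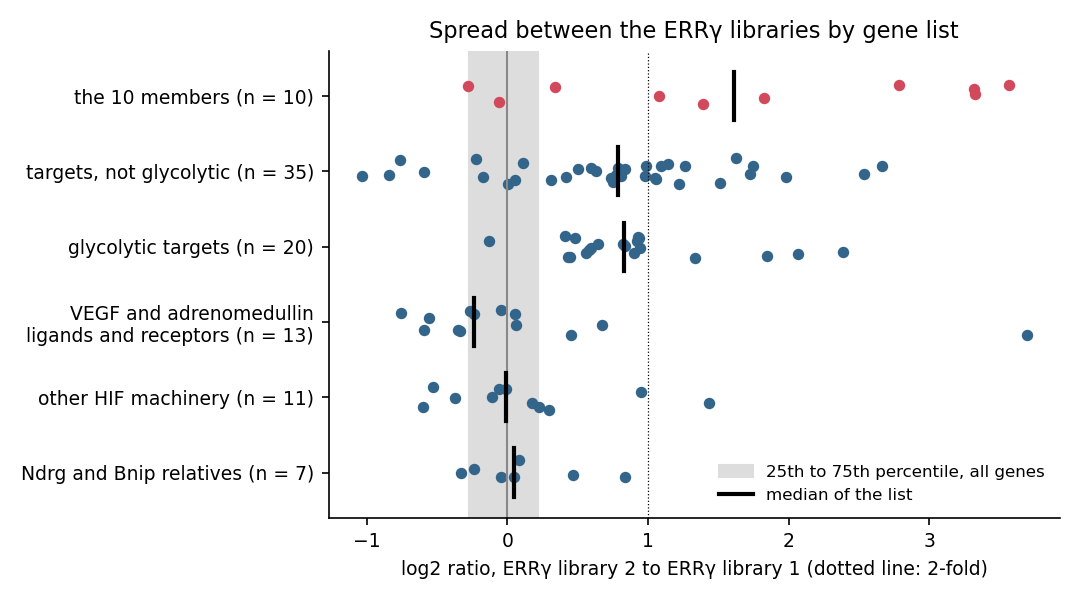
Each point is 1 tested gene, placed by its log2 ratio of ERRγ library 2 to ERRγ library 1; black bars are list medians, the grey band spans the 25th to 75th percentile of all genes tested (−0.27 to 0.22), and the dotted line marks 2-fold. The medians of the members and both target lists lie to the right of the band, and those of the other lists lie within it.

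In the rest of the HIF machinery no difference between the groups was called. None of 11 tested genes passed edgeR's test, none had an unadjusted p under 0.05, and DESeq2 called none. Vhl had 14.6 and 16.2 CPM with GFP and 12.0 and 23.7 CPM with ERRγ (adjusted p = 0.745, log2 fold change 0.21, SE 0.32). Egln2, the third prolyl hydroxylase, had 40.2 and 32.1 CPM against 38.7 and 25.4 CPM (adjusted p = 0.705). Hif1an, which encodes the asparaginyl hydroxylase that blocks coactivator binding, had 27.0 and 28.5 CPM against 29.1 and 19.95 CPM (adjusted p = 0.67). Cited2, a HIF target that competes for the same coactivators, had 129 and 110 CPM against 87.5 and 237 CPM (adjusted p = 0.543). Cited2 stood at 0.733 times the GFP mean in ERRγ library 1 and 1.98 times in library 2, and Vhl at 0.782 and 1.54 times. Cited2 had the widest ERRγ gap of this list, 2.71 times. Its log2 fold change was 0.44 with all libraries and 0.99 without ERRγ library 1. Hif3a had 4 and 8 counts with ERRγ and was too low to test.

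Receptors and ligands around Vegfa and Adm gave 2 rises and no fall among 13 tested genes (5.06% and 1.78% of all genes rose and fell). At an unadjusted p under 0.05, 5 rose and none fell, and DESeq2 called 2 rises and no fall. Vegfb, a relative of Vegfa, had 15.0 and 14.4 CPM with GFP and 26.7 and 27.8 CPM with ERRγ (adjusted p = 0.0302). Nrp2, a coreceptor, had 10.9 and 9.24 CPM against 23.6 and 18.4 CPM (adjusted p = 0.0398). Both genes had even ERRγ libraries, unlike Vegfa. Their calls ended without GFP library 1 (adjusted p = 0.209 and 0.203) or GFP library 2 (0.196 and 0.248), and that of Nrp2 also when library totals set the scale (0.054). Pgf, placental growth factor, had 31.4 and 25.4 CPM with GFP, 18.5 CPM in ERRγ library 1 and 245 CPM in library 2, a gap of 13.3 times. Pgf thus resembled Ndrg1, with ERRγ library 1 below both GFP libraries (adjusted p = 0.19). The VEGF receptor gene Flt1, at 1.13 and 1.35 CPM against 1.61 and 2.86 CPM, and Figf, at 0.307 and 0.628 CPM against 2.68 and 1.38 CPM, were low and did not pass (adjusted p = 0.436 and 0.139).

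Among relatives of Ndrg1 and Bnip3, none of 7 tested genes passed edgeR's test, 1 had an unadjusted p under 0.05, and DESeq2 called none. Bnip3l, the closest relative of Bnip3 and also a mitophagy receptor, had 133 and 131 CPM with GFP, 107 CPM in ERRγ library 1 and 192 CPM in library 2 (adjusted p = 0.717). Its ERRγ library 1 was thus below both GFP libraries and library 2 above both, with a ratio of 1.79 between them (1.66 to 1.92). Bnip1 (adjusted p = 0.587) and the mitophagy receptor gene Fundc1 (adjusted p = 0.514) had ERRγ libraries that stood in ratios of 1.40 and 0.790. Ndrg4 passed the test when either ERRγ library was left out, and Bnip3l without ERRγ library 1 (adjusted p = 0.00671).

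The genes whose profile over the 4 libraries was most like the members were sought among 8367 tested genes outside the lists with a mean of at least 10 CPM. Likeness was the root mean square distance between a gene's centred log2 CPM and the median profile of the 7 members other than the HIF subunits. The 5 nearest were Hspa1b (distance 0.11), Efna1 (0.16), Ovol1 (0.17), Dusp1 (0.23) and Zfp36 (0.23). Hspa1b, an inducible heat shock chaperone with a near-identical copy, had 11.9 and 12.7 CPM with GFP, 12.0 CPM in ERRγ library 1 and 80.8 CPM in library 2. Dusp1, a phosphatase that switches off MAP kinases, had 131 and 107 CPM with GFP, 103 CPM in ERRγ library 1 and 722 CPM in library 2. Zfp36, which destabilises cytokine mRNAs, had 9.11 and 10.7 CPM with GFP, 12.5 CPM in library 1 and 102 CPM in library 2. Efna1 encodes an ephrin ligand and Ovol1 an epithelial transcription factor.

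Among the 50 genes with the highest ratio of ERRγ library 2 to library 1, out of 8735 with a mean of at least 10 CPM, 14 came from the members and hypoxia lists. The members made up 5 of these, but their values led to their choice, so nothing is read from that count. Other list genes made up 9, which is 18% of the 50 and 13.8% of the 65 list genes at that level. For comparison, the list genes were 65 and the top genes 50 of all 8735 genes at that level. Those lists too were drawn up with earlier results known. Chosen after their values were seen, Atf3, a stress-induced transcription factor, had the highest log2 ratio of CPM plus 0.5, by which the 50 were ranked, with 11.9 and 7.36 CPM with GFP, 7.85 CPM in ERRγ library 1 and 229 CPM in library 2. The library that held the high member levels thus also held high levels of genes outside the hypoxia lists, and of Esrrg.

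Markers of other cell types moved between libraries as well. The summed level of 6 islet markers was 173 and 24.7 CPM in GFP libraries 1 and 2 and 41.4 and 12.4 CPM in ERRγ libraries 1 and 2. That of 6 fibroblast markers was 738 and 502 CPM against 625 and 544 CPM, and that of 6 endothelial markers 12.8 and 3.68 CPM against 7.14 and 6.72 CPM. Immune markers summed to 2.94 to 6.62 CPM over 5 genes, with Cd3e at 0 in all libraries. No tested islet, fibroblast, endothelial, immune or acinar marker passed edgeR's test in either direction, and of 7 ductal markers Cftr rose and Krt7 and Krt8 fell. From GFP library 1 to library 2, 5 of the 5 tested islet and 5 of the 8 tested acinar markers were at least 2-fold lower (2.72% of all genes). From ERRγ library 1 to library 2, 4 of the 6 islet and 4 of the 10 acinar markers were that much lower (3.76% of all genes). The islet marker Sst was at least 2-fold higher, at 0.625 and 1.88 CPM. The immune marker Cd68 was also that much higher, at 2.41 and 6.62 CPM. The fibroblast marker Pdgfrb (7.23 and 3.26 CPM) and the immune marker Lyz2 (6 and 0 counts) were that much lower. The ductal sum was 11127 and 10919 CPM in GFP libraries 1 and 2 and 7238 and 8587 CPM in ERRγ libraries 1 and 2. It was thus lower in both ERRγ libraries and did not part these as the members did. The part of these markers, of the Esrrg level and of the stress genes in the gap between the ERRγ libraries was not tested.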

How the data were processed

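The deposited files hold raw read counts per gene symbol, 1 table per library, from Lexogen QuantSeq libraries made from 500 ng total RNA, per the labels' protocols. Per the submitters' processing notes, Bowtie2, edgeR and mm10 were used; for versions, read counter, annotation, strand and filters the entry is: not given in the sources used here. Rows with a shared symbol (79 rows, 35 symbols) were kept apart.

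Counts were tested with edgeR 4.0.16 (R 4.3.3): filterByExpr with a minimum count of 10, TMM scaling, glmQLFit and glmQLFTest on 2 ERRγ against 2 GFP libraries, with 2 residual degrees of freedom, two-sided, Benjamini-Hochberg adjustment over the 13070 genes tested and a threshold of 0.05. The standard error (SE) is the log2 fold change divided by the square root of F. Totals were 10480878 and 10645277 counts in ERRγ libraries 1 and 2 and 10105604 and 11012351 in GFP libraries 1 and 2; a floor of 3 counts is 0.268 to 0.307 CPM. PCR reads without molecular identifiers are not independent molecules, so counting intervals (exact 95%, from the binomial distribution) and floors cover counting error only.

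The members and lists were chosen with earlier results of these data known. Named were all members and Esrrg; in each list up to 4 genes past the threshold in each direction by p and the 3 with the widest ERRγ library gap; Car9, Slc2a1, Pdk1, Pgk1, Ldha, Bnip3l, Vhl, Hif1an, Egln2 and Hif3a; and the 5 genes most like the members. Alternatives were library totals, the size factors of DESeq2, other filters, DESeq2 1.42.0, a replicate block, a pseudocount of 2 CPM and leaving out each library. Gene positions and overlaps were read from GENCODE M21 (GRCm38), and promoters from RefSeq on GRCm38.p6.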

Additional observations from a re-analysis of the deposited data

How the results depend on the processing

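No ratio of the 10 members moved by over 1.5 times under another scaling, another pseudocount or with 1 GFP library; that of Egln1 between the ERRγ libraries went under 2-fold with library totals, which shift the all-gene median log2 ratio to −0.17. Without GFP library 1 the log2 ratio of ERRγ library 1 to GFP turned from 0.015 to −0.13 for Arnt and from 0.16 to −0.041 for Egln1. The members' median log2 ratio of ERRγ library 1 to GFP ran from 0.051 to 0.41 with 1 GFP library, and that of ERRγ library 2 to library 1 was 1.44 with library totals. Over all genes, 1271 rose and 738 fell without a filter, and with 1 library left out 92 to 1597 rose and 7 to 1098 fell; the cause was not tested for the filter, and the spread rests on a single pair when a library is left out. Outside glycolysis 19 targets rose without a filter and 0 to 24 with a library left out; 1 fell with library totals and 1 to 4 with a library left out. In glycolysis 9 rose with library totals, 16 without a filter, 10 with DESeq2 and 0 to 17 with a library left out. Without ERRγ library 2 the log2 fold change changed sign for 11 named genes, all with adjusted p above 0.05 with 4 libraries. Their ranges over fits that left out a library were −0.45 to 0.99 for Cited2, −0.36 to 0.62 for Vhl, −0.51 to 0.098 for Egln2, −0.59 to 2.05 for Stc1, −0.47 to 1.525 for Hmox1, −0.097 to 2.30 for Pfkfb3, −0.17 to 1.90 for Slc2a1, −0.62 to 3.11 for Pgf, −0.30 to 0.54 for Bnip3l, −0.096 to 0.69 for Car9 and −0.48 to 0.064 for Hif1an. The labels do not say that replicate numbers pair the libraries, and the deviations of same-numbered libraries correlated at 0.0093 over genes. With the replicate number as a block, 776 genes rose and 315 fell, and 8 glycolytic targets rose. Low counts widen the counting intervals of Ankrd37 and Epas1.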
